A study of Mus musculus with 6 samples.

Results

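H2-Ea-ps, Ifi202b, Nnt, Glo1 and Wdfy1 are mouse genes whose alleles or expression are known to differ between inbred strains. They were followed by symbol as 5 of the 31771 genes in a count table of spleen RNA, and all 5 passed the expression filter that left 19573 genes for testing. The 5 were chosen by symbol, but selected on counts and CPM of mutant and control spleens in these same libraries. Their levels, fitted fold changes and standard errors are therefore given as a description, with no p-value or call.

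The libraries came from pieces of spleen of 6 mice, 3 mutants and 3 wild-type (WT) controls, and every animal carries the strain label C57BL/6. The mutants (VEC-Cre;SB Transposase; onc2) carry Cre recombinase under the vascular endothelial cadherin promoter, the Sleeping Beauty transposase and the onc2 transposon, which its transposase moves to new genomic sites. That promoter is active in endothelium and in the embryonic endothelium from which blood cells arise, so blood cells can carry the recombined allele too. The WT controls are labelled with none of these alleles, and the labels give no substrain, age or litter. Animals are called mutant 1 to 3 and control 1 to 3, numbers that only name them.

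Inbred strains differ at loci where an allele was deleted, silenced or duplicated, and a transcript of such a gene can mark which allele an animal carries. H2-Ea encodes the alpha chain of the E molecule, a major histocompatibility complex (MHC) class II protein that shows peptides to helper T cells. Mice of the H2-b haplotype, which C57BL/6 carries, lack the promoter of this gene and make no E alpha chain, hence the suffix for a pseudogene. Ifi202b encodes an interferon-inducible protein that binds cytosolic DNA and is silent or weakly expressed in C57BL/6. Nnt encodes the mitochondrial transhydrogenase that makes NADPH, and C57BL/6J carries an internal deletion of it that C57BL/6N does not. Glo1 encodes glyoxalase 1, which detoxifies methylglyoxal with glutathione, and lies in a segment that is duplicated in several strains and single in C57BL/6. Wdfy1 encodes a protein with WD repeats and a FYVE domain, found on early endosomes, that helps signalling by the Toll-like receptors TLR3 and TLR4.

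The reference sequence upstream of 2 members is shown because strain differences of Ifi202b and Glo1 bear on how much transcript is made. Both are from RefSeq on GRCm38.p6, on the minus strand, as the 250 bases before the start annotated there, written 5′ to 3′. The Ifi202b window is chr1:173982845-173983094 and the Glo1 window chr17:30612660-30612909. The Glo1 window lies inside the longer span given for Glo1 below, which has a different start. Capitals mark the motif CCAAT.
Ifi202b: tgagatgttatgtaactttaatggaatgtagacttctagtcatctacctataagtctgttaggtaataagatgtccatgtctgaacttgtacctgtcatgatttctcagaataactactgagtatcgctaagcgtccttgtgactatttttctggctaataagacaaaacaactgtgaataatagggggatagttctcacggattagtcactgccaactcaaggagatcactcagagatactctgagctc
Glo1: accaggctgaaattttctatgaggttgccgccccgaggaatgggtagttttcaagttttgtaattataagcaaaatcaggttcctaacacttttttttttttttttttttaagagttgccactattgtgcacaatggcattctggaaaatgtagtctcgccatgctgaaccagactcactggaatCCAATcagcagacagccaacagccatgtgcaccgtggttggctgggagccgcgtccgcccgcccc

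Searched on both strands, CCAAT occurred once in the Glo1 window and was not found in the Ifi202b window, and 33.8% of 32817 mouse promoter windows of this length held it. The interferon response motif, GAAA repeated after any 2 bases, held by 2.97% of windows, and the antioxidant response motif TGACNNNGC, held by 10.2%, were found in neither window. GC content was 46.4% for Glo1 and 38.4% for Ifi202b, against a median of 52.4% over all windows.

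Libraries held 72902118 to 79258116 counts, and levels are given as CPM, the counts scaled to a common library total. Spread was wider among the 3 mutants: the median coefficient of variation (CV, SD over mean) was 44.2% in mutants and 11.3% in controls over the genes tested. Spleen cell markers were present in the controls, in which 8 B-cell markers together reached 5253 to 5905 CPM. They summed to 93.8, 61.3 and 40.2 CPM in mutants 1, 2 and 3, and none of the 8 was at 0 in any library. In bulk RNA, fewer cells of a type and less RNA per cell cannot be told apart. Mutants 1 and 2 expressed Xist, at 1513 and 580.1 CPM, while mutant 3 and the controls expressed the Y-linked Ddx3y, at 55.0 to 62.7 CPM, so the mutants held both sexes and the controls were male.

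Read against the strain label, the controls stood apart at H2-Ea-ps (ENSMUSG00000036322, chromosome 17, 34341959 to 34344645 on GRCm38, annotated as a polymorphic pseudogene). The gene had 4741, 6287 and 5965 counts in controls 1, 2 and 3, and 2, 5 and 0 counts in mutants 1, 2 and 3. A spleen of the H2-b haplotype makes no such transcript, by the background above, so the controls went against their strain label at this gene and the mutants did not. Whether the controls carry another H2 haplotype was not tested. The counts are 64.2, 80.7 and 75.3 CPM in the controls against 0.0274, 0.0672 and 0 CPM in the mutants. All 3 controls were far above all 3 mutants, and the 0 counts in mutant 3 allow a level of up to 0.0391 CPM. The means were 73.4 ± 8.42 CPM in controls and 0.0316 ± 0.0338 CPM in mutants (SD, n = 3 each). Summed over libraries of a group, 16993 counts in controls against 7 in mutants gave a ratio of 2354 after scaling to library totals, with an exact 95% counting interval of 1142 to 5855. That interval covers counting error only. The fitted log2 fold change of mutant over control was -11.09 ± 0.85 (SE).

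**Figure D1:**
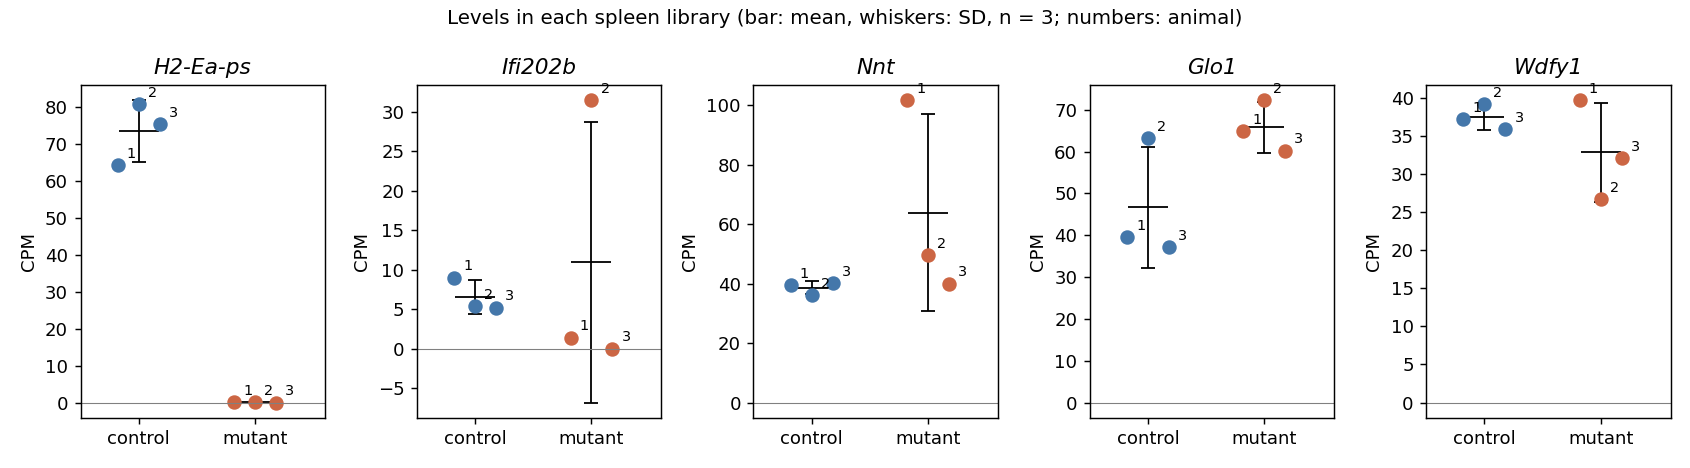
Levels of the 5 genes in CPM (vertical axes, linear) in each control (blue) and mutant (orange) spleen, with the animal's number beside each point, the mean as a bar and the SD as whiskers (n = 3). H2-Ea-ps separates the groups with nothing in between, while the other 4 genes overlap between groups, and 1 animal sits apart for Ifi202b (mutant 2) and for Nnt (mutant 1).

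H2-Ea-ps was the 1 gene of the 5 whose groups did not overlap, and the groups did not overlap at 40.5% of the genes tested. Because mutant and control values helped to pick the members, this count only describes them. By limits set after the values were seen, 3997 genes had at least 50 CPM in every control, and H2-Ea-ps was the 1 among them with under 0.1 CPM in every mutant. Lowering the first limit to 10 CPM gave 9421 genes and still only H2-Ea-ps. The reverse pattern, at least 50 CPM in every mutant and under 0.1 CPM in every control, was also met by 1 gene, En2, a homeobox gene whose splice acceptor is part of the onc2 transposon. En2 is named after its values were seen, which were 84.2, 59.1 and 54.6 CPM in mutants 1, 2 and 3.

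The E alpha chain pairs with the beta chain encoded by H2-Eb1, which lies 38.8 kb away by start site. H2-Eb1 was at 1255, 1353 and 1426 CPM in controls 1, 2 and 3. Mutants 1 and 3 had 39.8 and 46.9 CPM of it, and mutant 2 had 2745 CPM. Mutant 2 therefore had more of the beta chain transcript than any control, and mutants 1 and 3 had far less. Per 1000 counts of H2-Eb1, H2-Ea-ps had 51.1, 59.6 and 52.8 counts in controls 1, 2 and 3. In mutant 2 it had 0.0245 (exact 95% counting interval 0.00795 to 0.0572), from 5 counts beside 204152 of H2-Eb1. At the pooled control ratio to H2-Eb1, mutant 2 would have held 11148 counts of H2-Ea-ps. That number depends on the reference gene and was lower with those given below. Mutant 1 had 0.689 per 1000 (0.0834 to 2.49), and the 0 counts of mutant 3 allow up to 1.03 per 1000 by the same interval. Mutant 2 thus had only a trace of H2-Ea-ps transcript beside abundant partner transcript, its 5 counts being above the 3 taken as the limit of detection. The intervals of mutants 1 and 3 also lay below every control.

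**Figure D2:**
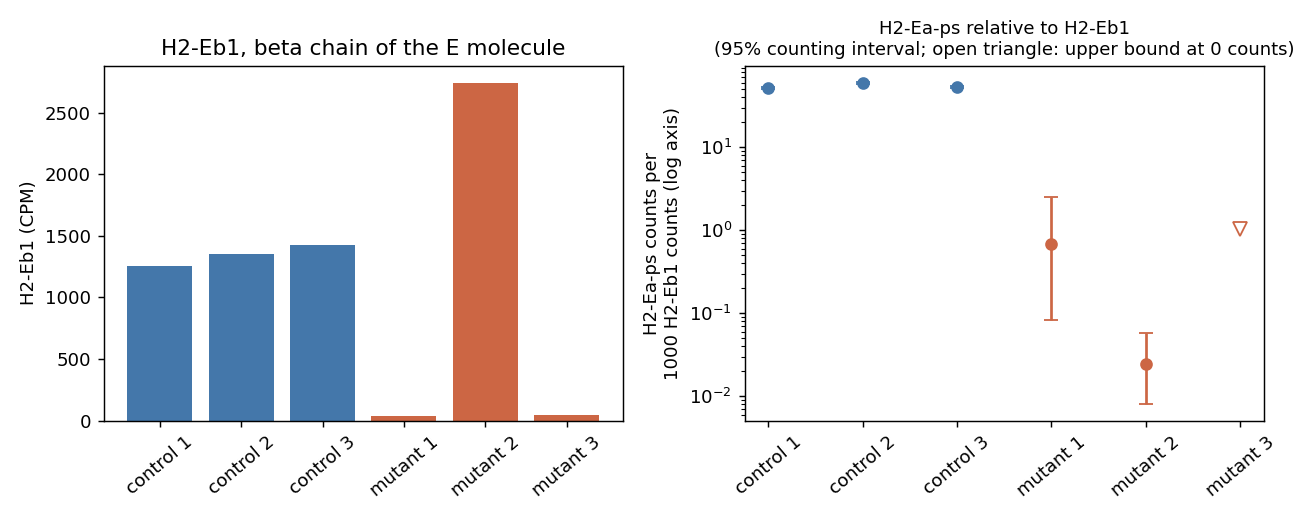
Left, H2-Eb1 in CPM (bars from 0) in each library. Right, H2-Ea-ps counts per 1000 H2-Eb1 counts on a log axis, with exact 95% counting intervals and an open triangle for the upper bound at 0 counts. Mutant 2 has the highest bar at 2745 CPM and the lowest ratio above 0, at 0.0245, and the controls lie between 51.1 and 59.6.

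With other class II genes as the reference, H2-Ea-ps was again lower in mutant 2 than in any control. H2-Ea-ps had 17.2 to 20.0 counts per 1000 of H2-Aa in the controls and 0.0211 in mutant 2, in which H2-Aa, the alpha chain of the A molecule, was at 3183 CPM. Per 1000 counts of Cd74, the invariant chain that escorts class II molecules, the controls had 8.38 to 10.02 and mutant 2 had 0.00904. At the pooled control ratios to H2-Aa and Cd74, mutant 2 would have held 4337 and 5072 counts of H2-Ea-ps. Mutant 2 also held 7734 CPM of 8 monocyte and macrophage markers and 141 CPM of 8 dendritic cell markers, against 1392 to 1911 and 233.7 to 266 CPM in the controls. Its B-cell markers were at 61.3 CPM, so the class II transcripts of mutant 2 and of the controls stood beside different cell markers. The part of cell composition in the H2-Ea-ps difference between groups was not tested.

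Of 11 other genes of class II presentation, 4 fell in the mutants by edgeR at an adjusted p under 0.05 and the rest did not pass, where 6.90% of all genes tested were called lower and 5.08% higher. H2-Eb2, a second beta-type gene beside H2-Ea-ps, fell from 47.6 ± 4.85 to 1.41 ± 0.393 CPM (log2 -5.05 ± 0.32, adjusted p = 0.00153). H2-Oa and H2-Ob, the chains of the DO molecule that restrains peptide loading in B cells, fell by 5.02 ± 0.31 and 5.17 ± 0.52 on the log2 scale (adjusted p = 0.00153 and 0.00683). H2-DMb2, a chain of the peptide loader DM, fell by 5.21 ± 0.61 (adjusted p = 0.00908), and its call was lost without any single control (adjusted p 0.0568 to 0.0614). The list median was -1.78 (-4.06 by limma-voom), beside 0.10 over all genes tested, and in mutants 1, 2 and 3 it was -5.53, -0.23 and -5.10. Without mutant 2 all 11 fell, with a median of -5.32, in a run where 3137 of all 20481 genes tested were lower. H2-Ea-ps is not among the 11. The 4 that fell were at 1.80 to 18.5 CPM in mutant 2, the animal that kept H2-Eb1, H2-Aa and Cd74, and each was above the level of H2-Ea-ps there. B-cell markers moved with these 4 genes, as given above. T-cell markers were also lower, at 31.4, 298 and 25.4 CPM in mutants 1, 2 and 3 against 620 to 763 CPM in controls. Dendritic cell markers were at 44.2 and 36.4 CPM in mutants 1 and 3, and monocyte and macrophage markers at 280 and 768 CPM. These too were below the control ranges given above. The part of these cell types was not tested.

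Within 250 kb of the H2-Ea-ps start site, 21 protein-coding genes were tested and 4 fell, beside 6.90% of all genes tested. They were H2-DMb2, H2-Ob and H2-Eb2, already counted among the class II genes above, and Gpsm3 (log2 -0.63 ± 0.15, edgeR adjusted p = 0.0477). DESeq2 and limma-voom each called 6 of the 21, and 9 had an unadjusted p under 0.05. The nearest of the 21 were H2-Eb2 and, on the far side, Btnl2, a butyrophilin-like gene. Btnl2 had 16.3 to 18.02 CPM across controls, against 0.508 in mutant 1, 4.58 in mutant 2 and 0.313 in mutant 3 (edgeR adjusted p = 0.115). The median log2 fold change of these neighbours was -1.01.

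Ifi202b (ENSMUSG00000026535, chromosome 1, 173962568 to 173982744) differed between animals inside the mutant group. It had 665, 422 and 413 counts in controls 1, 2 and 3, and 104, 2339 and 1 counts in mutants 1, 2 and 3. In CPM these are 8.999, 5.415 and 5.21 for the controls and 1.43, 31.4 and 0.0130 for the mutants. Mutant 2 was above every control and mutants 1 and 3 were below every control, so the groups overlapped. The fitted log2 fold change was 0.83 ± 1.82, and it turned to -3.21 without mutant 2 and to -2.78 by limma-voom. The CV of 162% in mutants was higher than that of 97.9% of the genes tested. The count of mutant 3 is under the 3 counts taken as the limit of detection, and its ratio to control 3 was not resolved beyond that. Where reads fit several near-identical copies of this gene, their assignment is uncertain, since the handling of such reads is not given.

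The neighbouring members of the same family, whose products share a DNA-binding HIN domain and whose genes form a cluster on chromosome 1, were not all lost in mutant 3. Ifi204, which like Ifi202b is induced by interferon, ranged from 6.95 to 15.0 CPM over the controls, and mutants 1, 2 and 3 had 6.49, 83.1 and 17.8 CPM. Ifi203 was at 155 CPM in mutant 3, within the control range of 109.6 to 169 CPM, and Mndal at 149.8 CPM, within 65.7 to 169 CPM. Others were low there: Ifi208 and Ifi214 were each at 0.339 CPM against control means of 18.04 and 13.9 CPM, Aim2 at 5.43 against 102 CPM and Ifi209 at 13.6 against 124 CPM. The family median log2 ratio to the control mean was -1.42 in mutant 3. The single Ifi202b count of mutant 3 stood beside 1369 counts of Ifi204 and 11911 of Ifi203. Mutant 2 was the highest library for Ifi202b, Ifi204, Ifi207 and Ifi211, and mutant 1 the lowest for 9 of the 12 relatives.

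Per 1000 counts of Ifi204, Ifi202b had 600.7, 715 and 749.6 in controls 1, 2 and 3, and 219.9 and 378 in mutants 1 and 2. The order depended on the reference gene. Per 1000 counts of Ifi203, mutant 2 had 238 against 30.9 to 82.1 in the controls, and mutant 1 had 20.5. Relative to 1000 counts of Mndal, mutant 2 had 271 against 30.8 to 137, and mutant 1 had 20.7. Against 1000 counts of Ifi209, mutants 1 and 2 had 1209 and 1032, and the controls 33.8 to 117. In mutant 3 the ratio was below every control with each of the 4 references. Of the 12 tested members of the family, 1 fell in mutants by edgeR, beside 6.90% of all genes tested, with a list median of -0.71. That median was -0.28 without mutant 1, -1.48 without mutant 2, where 3 fell, -0.44 without mutant 3 and -1.55 by limma-voom. Ifi208 fell from 18.04 ± 0.889 to 1.08 ± 1.24 CPM (log2 -3.99 ± 0.93, adjusted p = 0.0450). Leaving out any control, or mutant 1 or mutant 3, ended its call. Of 15 interferon-induced genes, 2 rose, beside 5.08% of all genes tested, with a list median of 1.02. The median was -0.95, 2.002 and 0.78 in mutants 1, 2 and 3, and 0.29 without mutant 2, where 2 rose and 2 fell. It was 0.42 by limma-voom, and without mutant 1 the count of genes that rose was 7. Over all genes tested, 1780 of 20384 rose without mutant 1. Without mutant 2, 2794 of 20481 rose and 3137 fell. Ifih1, a cytosolic sensor of double-stranded RNA, rose from 11.5 ± 2.65 to 84.8 ± 55.9 CPM (log2 2.89 ± 0.48, adjusted p = 0.0205). Oas1a, an enzyme of the antiviral oligoadenylate pathway, rose from 8.60 ± 1.95 to 35.3 ± 14.1 CPM (log2 2.08 ± 0.38, adjusted p = 0.0245). Both calls were lost without any single control. The highest Ifih1 level was in mutant 1, at 149 CPM, where Ifi202b was at 1.43 CPM.

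**Figure D3:**
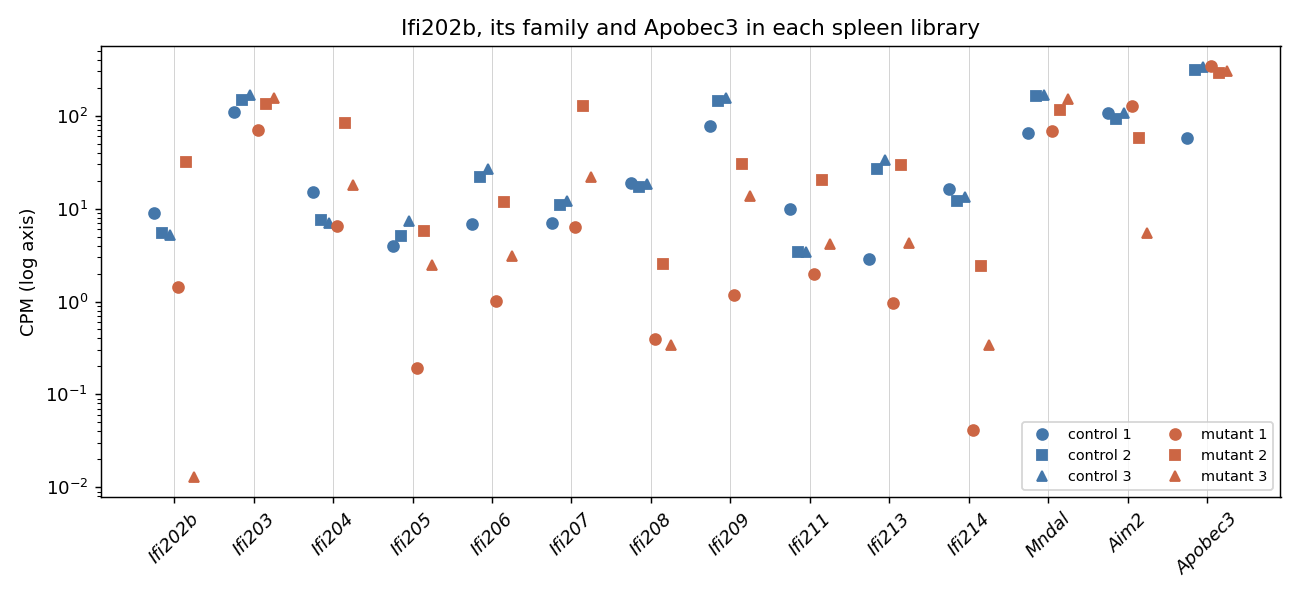
Levels of Ifi202b, its family and Apobec3 in CPM on a log axis, by library, with controls in blue and mutants in orange. Mutant 3 has 0.0130 CPM of Ifi202b beside 17.8 CPM of Ifi204, and control 1 lies below the other controls for Mndal, Ifi213, Ifi206 and Ifi209.

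Control 1 stood apart from the other controls at several family members. Mndal was at 65.7 CPM in control 1 against 161 and 169 CPM in controls 2 and 3, and Ifi213 at 2.84 against 26.4 and 33.0 CPM. Ifi204 and Ifi211 went the other way, at 15.0 and 9.86 CPM in control 1 against at most 7.57 and 3.44 CPM in the other controls. Ifi202b itself was highest in control 1 among controls. Among 12075 genes whose log2 CPM averaged 2 or more, control 1 was under 1/3 of both other controls at 12 genes and over 3 times both at 8. Ifi213 and Ifi206 were among the 12, as was Apobec3, a cytidine deaminase that restricts retroviruses and differs between strains in splicing and level. Apobec3, named after its values were seen, was at 58.2 CPM in control 1, at 310.4 and 334 CPM in controls 2 and 3 and at 339, 289 and 301 CPM in mutants 1, 2 and 3. Control 2 was likewise under 1/3 of both others at 4 genes and control 3 at 10, so control 1 had 12 such genes beside 10 in control 3. What separates control 1 at these genes was not tested.

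Nnt (ENSMUSG00000025453, chromosome 13, 119335448 to 119408997) was present at similar levels in all controls and highest in mutant 1. It had 2924, 2822 and 3185 counts in controls 1, 2 and 3, which are 39.6, 36.2 and 40.2 CPM. Mutants 1, 2 and 3 had 7415, 3694 and 3072 counts, which are 102, 49.7 and 40.02 CPM. Mutants 1 and 2 were above every control, and mutant 3 lay inside the control range. The means were 38.7 ± 2.14 CPM in controls and 63.8 ± 33.2 CPM in mutants, with a fitted log2 fold change of 0.73 ± 0.36 that became 0.26 without mutant 1. A count over the whole gene does not show whether the exons deleted in C57BL/6J were read, so these values do not tell the Nnt alleles apart. A second annotated gene of the same symbol is not used here.

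Of 15 other genes of mitochondrial NADPH supply and peroxide removal, 3 rose and 1 fell, with a list median of 0.80. Of all genes tested, 5.08% rose and 6.90% fell. The number that rose was 6 without mutant 1 and 8 without mutant 2, beside 1780 of 20384 and 2794 of 20481 over all genes tested. Nadk2, which makes mitochondrial NADP, rose from 30.9 ± 5.93 to 81.3 ± 20.1 CPM (log2 1.39 ± 0.26, adjusted p = 0.0256). Gsr, glutathione reductase, rose from 51.7 ± 1.84 to 128 ± 38.0 CPM (log2 1.34 ± 0.28, adjusted p = 0.0328). Prdx3, the mitochondrial peroxidase that draws on NADPH through thioredoxin, rose from 62.1 ± 3.597 to 117 ± 14.7 CPM (log2 0.92 ± 0.16, adjusted p = 0.0227). Me3, a mitochondrial malic enzyme, fell from 0.977 ± 0.0498 to 0.131 ± 0.0681 CPM (log2 -2.86 ± 0.57, adjusted p = 0.0298). All 4 calls were lost without any single control. Idh2, the isocitrate dehydrogenase that also makes NADPH in mitochondria, had 55.6 to 58.8 CPM in controls against 102 to 226 CPM in mutants (edgeR adjusted p = 0.0579). Per 1000 counts of Idh2, Nnt had 450.2, 487 and 393 in mutants 1, 2 and 3 and 619 to 712 in the controls. With Prdx3 as the reference, per 1000 of its counts, mutant 1 had 969 against 582 to 687 in the controls, and mutants 2 and 3 had 442 and 300.3. In mutant 1, Nnt and Idh2 were both at their highest.

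Glo1 (ENSMUSG00000024026, chromosome 17, 30584936 to 30626871) split the controls. It had 2923, 4932 and 2948 counts in controls 1, 2 and 3, and 4736, 5378 and 4621 counts in mutants 1, 2 and 3. These are 39.6, 63.3 and 37.2 CPM in the controls and 65.0, 72.3 and 60.2 CPM in the mutants. Controls 1 and 3 were low, and control 2 lay among the mutants. The control CV of 30.9% was above that of 80.6% of the genes tested, while the mutant CV of 9.27% was below that of all but 3.97%. The fitted log2 fold change was 0.51 ± 0.27 and became 0.81 without control 2. Glo1 thus varied more among controls than among mutants, with 1.70 times between the highest and lowest control against 1.20 times between mutants.

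By the longer span given above, Glo1 overlaps Dnah8, a dynein gene on the other strand, and 1700097N02Rik, a noncoding gene on its own strand. Both overlaps lie upstream of the start used for the Glo1 sequence. Dnah8 had 1974, 3672 and 2388 counts in controls 1, 2 and 3 and 375, 454 and 2118 in mutants 1, 2 and 3. Control 2 was the highest control for both Glo1 and Dnah8, while mutants 1 and 2 had much Glo1 and little Dnah8. The strand setting of the counting is not given in the sources used here, so reads of overlapping genes cannot be told apart. The part of gene copy number was not tested.

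Of 14 other glyoxalase and glutathione genes, 1 fell, beside 6.90% of all genes tested, with a list median of 0.53. Without mutant 1, 2 rose, and without mutant 2, 4 rose. Over all genes tested, 1780 of 20384 and 2794 of 20481 rose in these runs. Ggct, which releases 5-oxoproline in glutathione turnover, fell from 27.9 ± 1.07 to 12.8 ± 4.26 CPM (log2 -1.13 ± 0.26, adjusted p = 0.0431), and leaving out any control or mutant 1, or the expression filter (adjusted p = 0.0699), ended this call. Hagh, the second glyoxalase, which follows Glo1 in the pathway, had 97.2, 79.6 and 62.0 CPM in controls 1, 2 and 3, and the mutants in the same order had 32.1, 172 and 48.2 CPM. The high Glo1 of control 2 was therefore not matched by Hagh, for which control 2 was in the middle of its group.

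Wdfy1 (ENSMUSG00000073643, chromosome 1, 79702262 to 79776143) varied least among the 5 in the controls. It had 2750, 3059 and 2848 counts in controls 1, 2 and 3 and 2897, 1987 and 2465 in mutants 1, 2 and 3. These are 37.2, 39.3 and 35.9 CPM in the controls and 39.7, 26.7 and 32.1 CPM in the mutants. Mutant 1 was the highest library of all and mutants 2 and 3 lay under every control, so the groups overlapped. The fitted log2 fold change was -0.19 ± 0.19, and it was -0.32 without mutant 1, -0.09 without mutant 2 and -0.28 with upper-quartile factors. The start of Mrpl44, a mitochondrial ribosomal protein gene on the other strand, overlaps that of Wdfy1.

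Of 15 relatives and genes of TLR3 and TLR4 adaptor signalling, 1 fell, beside 6.90% of all genes tested, with a list median of -0.05. Without mutant 2 the median was -1.20 and 4 fell, without mutant 1 it was 0.03 with 2 risen and 2 fallen, and by limma-voom it was -0.55. Over all genes tested, 3137 of 20481 fell without mutant 2. Without mutant 1, 1780 of 20384 rose and 1930 fell. Traf3, an adaptor that restrains noncanonical NF-kappaB signalling and carries TLR signals to interferon, had 109.7 ± 7.67 CPM in controls and fell to 39.1 ± 8.51 CPM in mutants (log2 -1.48 ± 0.19, adjusted p = 0.0104). Leaving out any control ended the call (adjusted p 0.0719 to 0.0742). Ticam1, the adaptor that Wdfy1 is known to help bring to TLR3, was at 23.1 to 28.2 CPM in controls and 19.4 to 31.5 CPM in mutants.

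A list of 21 other genes with alleles that vary between strains had 18 tested, of which 1 rose and 1 fell, with a median of 0.07. Without mutant 2 the median was -1.44, with 2 higher and 5 lower, beside 2794 and 3137 of all 20481 genes tested. By limma-voom the median was -0.89. It was -0.03 without mutant 1, 0.24 without mutant 3 and -0.04 with upper-quartile factors. Alad, an enzyme of haem synthesis whose gene is duplicated in some strains, rose from 192 ± 48.8 to 769 ± 336 CPM (log2 2.03 ± 0.43, adjusted p = 0.0339). Of 8 erythroid markers Epor rose, their median log2 fold change was 1.69, and their medians were -0.21, 2.49 and 1.53 in mutants 1, 2 and 3. Their summed level went the other way, at 3257, 36382 and 3050 CPM in mutants 1, 2 and 3 against 40166 to 63936 CPM in the controls. That sum includes the globin gene Hbb-bs and follows the most abundant markers. Without haemoglobin and immunoglobulin genes, the median log2 fold change of the 7 markers left was 1.92. The part of the erythroid markers in the level of Alad was not tested. Cyfip2, an actin regulator with a variant in C57BL/6N, fell from 273 ± 20.9 to 88.4 ± 13.6 CPM (log2 -1.62 ± 0.17, adjusted p = 0.00745). Leaving out any control ended the calls of Alad, Epor and Cyfip2. Epor was the least firm, at an edgeR adjusted p of 0.0499. Its call was also lost with upper-quartile factors, no expression filter or limma-voom (adjusted p 0.0532 to 0.0612). The same held without haemoglobin and immunoglobulin genes, without mutant 2 and without mutant 3 (adjusted p 0.0517 to 0.0948). Crb1 and Pla2g2a, with known C57BL/6 variants, were at most 0.0686 CPM in any library and were not tested. Over all 7 lists, 6 of 100 genes tested rose and 9 fell, beside the 5.08% and 6.90% of all genes called higher and lower.

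**Figure D4:**
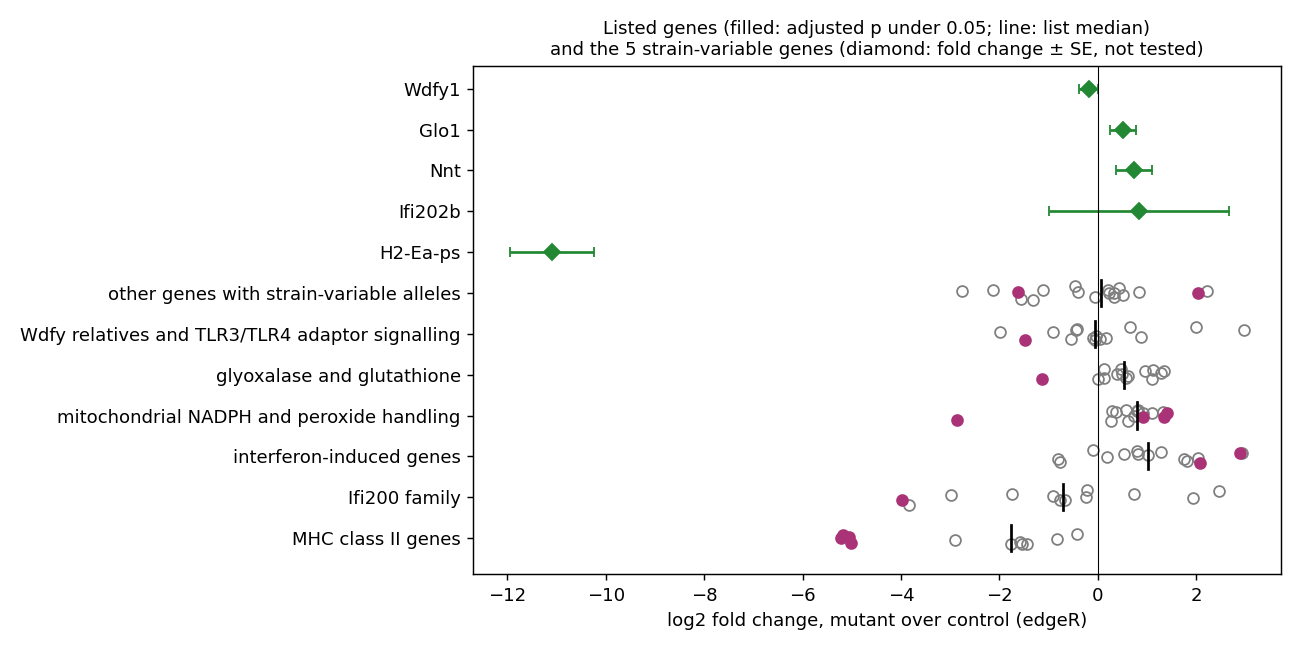
Fitted log2 fold change of mutant over control (horizontal axis), with its SE for the 5 genes (diamonds), and for the genes of each list (circles, filled where the edgeR adjusted p was under 0.05, with the list median as a line). H2-Ea-ps lies at -11.09 and the other 4 members between -0.19 and 0.83.

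Levels were also scaled per kilobase of exon, the length being the union over all annotated transcripts (1036 bases for H2-Ea-ps, 12101 for Glo1). The order of the genes therefore depends in part on the annotation. On this scale H2-Ea-ps was the most abundant of the 5 in controls, at 70.8 ± 8.13 CPM per kb. Wdfy1, Nnt, Glo1 and Ifi202b followed, far below it, at 5.77 ± 0.258, 5.49 ± 0.304, 3.86 ± 1.19 and 3.85 ± 1.26. Among those that followed, only Nnt and Glo1 were neighbours in rank whose mean ± SD did not meet. Their single values still overlapped, since Glo1 reached 5.23 in control 2 and Nnt was at 5.15 there. In mutants, Nnt, Ifi202b, Glo1 and Wdfy1 stood at 9.07 ± 4.72, 6.46 ± 10.5, 5.44 ± 0.504 and 5.06 ± 1.01, overlapping throughout. H2-Ea-ps was last in mutants, at 0.0305 ± 0.0326 CPM per kb. The members did not share a pattern over the 6 libraries, with Pearson r of log2 CPM from -0.648 (H2-Ea-ps with Glo1) to 0.535 (H2-Ea-ps with Wdfy1).

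Among 11277 genes, those most like H2-Ea-ps over the 6 libraries were Lef1, Fcrla and Lta, each at r = 0.999, and 99 genes exceeded 0.99. Such values rest on the gap between the groups. The nearest patterns were Tigit (r = 0.996), Ankrd16 (0.993) and Rab29 (0.9902) for Ifi202b, and Fkbp7 (0.999), Tmbim4 (0.996) and Scnn1a (0.995) for Nnt. For Wdfy1 they were Ccdc59 (0.9902), Jtb (0.981) and Abhd17a (0.980). Glo1 had the fewest like it: Atp6v0c-ps2 (0.968), Hpn (0.924) and Mettl6 (0.912), with 4 genes above 0.9.

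Within 250 kb of the other members' start sites, edgeR called 2 of 9 protein-coding neighbours lower for Ifi202b, beside 6.90% of all genes tested. They were Olfr433 and Olfr432, olfactory receptor genes at only 1.22 to 1.35 and 0.616 to 1.04 CPM in the controls. The nearest, Ifi203 and Ifi205, were not called (edgeR adjusted p = 0.656 and 0.593). None of 5 was called for Nnt, with Paip1 nearest (1 with an unadjusted p under 0.05; DESeq2 called 1 and limma-voom 0). None of 2 was called for Glo1, counted from the start of its longer span, Dnah8 being the nearest (0 with an unadjusted p under 0.05, and 0 for either other tool). None of 3 was called for Wdfy1, with Mrpl44 and Serpine2 nearest (1 with an unadjusted p under 0.05, and 1 for each other tool). Nothing in the labels says how the animals relate to each other. The p-values set the difference between groups against the spread within groups of these 6 spleens. Sex was not balanced between the groups, as given above.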

How the data were processed

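Bulk RNA-seq libraries from 6 mouse spleens, 3 mutant and 3 control, were compared. The authors' deposited table holds raw read counts per Ensembl gene. The submitters' processing notes name STAR 2.5.3a and mm10 (GRCm38), without their role. The counting tool's strand setting is not given in the sources used here. Symbols and coordinates were matched for 31669 of 31771 identifiers. CPM was computed from library totals of 72902118 to 79258116 counts, and 3 counts were taken as the limit of detection. Counts were tested with edgeR 4.0.16 in R 4.3.3 (TMM factors, filterByExpr, robust quasi-likelihood test, Benjamini-Hochberg adjustment over 19573 genes, threshold 0.05). Alternatives were DESeq2 1.42.0, limma-voom 3.58.1, other factors and filters, and leaving out each animal. The members and gene lists were chosen with earlier results of these data known. Named genes are the members, called genes of each list, H2-Eb1, the 3 genes most correlated with each member and nearest neighbours. Hagh, Idh2, Ticam1, H2-Aa, Cd74, Apobec3, En2, Olfr433, Olfr432, Gpsm3 and the Ifi200 relatives that are not called were named after their values were seen.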

Additional observations from a re-analysis of the deposited data

How the results depend on the processing

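The log2 fold change of H2-Ea-ps lay between -12.28 and -10.50 over every alternative run. DESeq2 called 2444 genes higher and 2640 lower, against 995 and 1351 by edgeR, and 17 listed genes higher against 6. Leaving out each animal in turn gave 4 to 2794 genes higher, 119 to 3137 lower, 0 to 18 listed genes higher and 3 to 27 listed genes lower. The low ends came without 1 control, where edgeR gave 6, 4 and 8 genes higher without control 1, 2 and 3, and where the 0 listed genes higher had 12 to 13 at an unadjusted p under 0.05. Without mutant 2, 27 listed genes were lower, against 9, beside 3137 of all genes, against 1351. With 2 libraries in a group, the cause of the loss was not tested. The fold change of Ifi202b changed sign by limma-voom and without mutant 2, and no call of it was made. The median log2 fold change of all genes moved from 0.10 to 0.00 with upper-quartile factors and to -0.02 by limma-voom. No paired analysis was possible because the labels share no replicate numbers between groups.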
